A study of Drosophila melanogaster with 4 samples.

Results

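The genes described here are 9 components of insulin receptor and TOR growth signalling, chosen by symbol from the 17806 named genes of the deposited count table: InR, chico, Pi3K92E, foxo, Tor, S6k, Thor, ImpL2 and Myc. The series compares RNA recovered with the poly(A)-binding protein (PABP) on FLAG beads with RNA of the total extract (input) in adult fruit flies, Drosophila melanogaster, by CLIP-seq, in which proteins are crosslinked to RNA and precipitated and the RNA is sequenced. Each of the 2 PABP IP and 2 input samples was prepared from 200 powdered, ultraviolet-treated whole flies, 100 male and 100 female. The labels assign the PABP IP to intestinal progenitor cells and the input to all cells, and the sources used here do not give the genotype, the driver of the tagged PABP or the age of the flies. The total count was 8987420 in PABP IP 1, 10761349 in PABP IP 2, 2464629 in input 1 and 3346231 in input 2.

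In insulin signalling, insulin-like peptides bind the receptor InR, which works through the adaptor chico and the lipid kinase PI3K to activate the kinase AKT. AKT keeps the transcription factor FOXO out of the nucleus and relieves the TSC complex's hold on RHEB, which switches on the TOR kinase. TOR complex 1 then phosphorylates S6 kinase and the translation repressor encoded by Thor, while Myc drives ribosome production. In the fly midgut this pathway is known to set the growth and division of intestinal stem cells according to feeding.

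Most marker genes went with the labels. All 4 progenitor markers (esg, Dl, Sox21a and klu) were detected and higher in the IP, with summed levels of 4320 and 4816 CPM in the IP libraries and 65.0 and 64.5 CPM in the inputs, where CPM is the count scaled by the TMM library size. All 5 enterocyte markers, all 4 muscle markers, all 3 tested fat body markers and all 5 germline markers were lower. The fat body marker Fbp1 was not tested, with 55 and 1 counts in PABP IP 1 and 2 and 0 and 2 in input 1 and 2. Of 4 enteroendocrine markers 1 was higher and 1 lower, and of 3 tested neuronal markers 2 were lower. These markers were not at 0 in the IP: enterocyte markers summed to 443 to 579 CPM there and fat body markers to 517 to 633 CPM. The part of other cell types in the values below was not tested. Neither a precipitation without tagged PABP nor RNA of isolated progenitors was analysed here, so a higher level in progenitors, stronger PABP binding and background on the beads cannot be told apart, nor can more cells and more RNA per cell.

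Of the 9 genes, 7 rose in the PABP IP, from 16.5-fold for InR to 1.17-fold for Tor. The level of Thor did not pass the test, and Myc could not be measured. Of all 9989 tested genes, 75.9% were called, 37.1% as higher and 38.8% as lower (edgeR, quasi-likelihood F test, p adjusted by Benjamini-Hochberg and below 0.05), and against this background 7 of the 8 tested genes of the group were higher and none lower. These shares varied with gene length, as described below. Among tested genes of similar length, 48.8% to 53.5% were higher and 24.1% to 32.5% lower for each gene of the group except Thor. For Thor the shares were 22.9% and 46.6%. In all 8 tested genes of the group the libraries of the 2 sample groups did not overlap, as in 88.6% of all tested genes. The median log2 fold change of the 8 was 1.85, beside -0.10 for all tested genes. When the fold change was tested against a log2 value of 1 instead of 0, which 21.5% of all genes passed on the higher side, 6 of the 8 passed: all except Tor and Thor. The zero point of these fold changes depends on how libraries are scaled. With library size alone the median of all tested genes was -0.95, 22.1% of them were higher and 63.5% lower, and of the 8 genes 6 were higher while Tor and Thor were lower.

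InR, the insulin receptor, showed the largest change of the group. Its level was 939 CPM in PABP IP 1 and 1060.5 in PABP IP 2, against 71.4 in input 1 and 50.8 in input 2. Both IP libraries lay far above both inputs, and the inputs, with 234 and 230 counts, differed more from each other, relative to their mean, than those of the other measured genes. The log2 fold change was 4.05 ± 0.16 (SE, n = 2 each; edgeR adjusted p = 4.65e-13), and it ranked at place 164 of the 9989 tested genes. Over the 5 scalings tried, the value ran from 3.20 with library size alone to 4.12 with RLE factors.

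Downstream of the receptor, chico encodes the insulin receptor substrate. Its level was 30.6 and 37.8 CPM in PABP IP 1 and 2 and 10.4 and 9.93 CPM in input 1 and 2. The IP libraries were both above the inputs, with a log2 fold change of 1.76 ± 0.19 (SE, n = 2 each; edgeR adjusted p = 2.86e-07). These values rest on only 34 and 45 input counts. Of the chico span 72.1% is shared with the antisense gene asRNA:CR44995, which leaves 1.27 kb not shared. The antisense gene itself had 0 counts in all 4 libraries. Overlap can leave a gene at 0 here, as in all 1922 protein-coding genes wholly inside another, so this does not show that its RNA is absent. Pi3K92E, the catalytic PI3K subunit, had 277.9 and 280.7 CPM in PABP IP 1 and 2 and 107.7 and 94.5 CPM in input 1 and 2. The IP replicates were nearly equal and the groups did not overlap (log2 fold change 1.47 ± 0.11 SE, n = 2 each; edgeR adjusted p = 1.15e-09).

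Of the output genes, S6k, the kinase of ribosomal protein S6 and a direct TOR target, rose most. Its level was 812 CPM in PABP IP 1, 884 in PABP IP 2, 130.0 in input 1 and 113 in input 2, so both IP libraries stood well clear of the inputs. The log2 fold change was 2.81 ± 0.13 (SE, n = 2 each; edgeR adjusted p = 2.2e-12). The transcription factor gene foxo had 350.1 and 380.5 CPM in PABP IP 1 and 2 and 94.3 and 95.6 CPM in input 1 and 2, a log2 fold change of 1.94 ± 0.11 (SE, n = 2 each; edgeR adjusted p = 3.33e-11). ImpL2 encodes a secreted protein that binds insulin-like peptides and opposes their action. Its level was 249.7 and 256.9 CPM in PABP IP 1 and 2 and 65.9 and 64.7 CPM in input 1 and 2, with a log2 fold change of 1.96 ± 0.11 (SE, n = 2 each; edgeR adjusted p = 2.19e-11). The inhibitor gene ImpL2 and foxo thus had fold changes that lay within 1 SE of each other, and the counts of foxo per count of ImpL2 were 1.40, 1.48, 1.43 and 1.48 in PABP IP 1 and 2 and input 1 and 2.

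**Figure D1:**
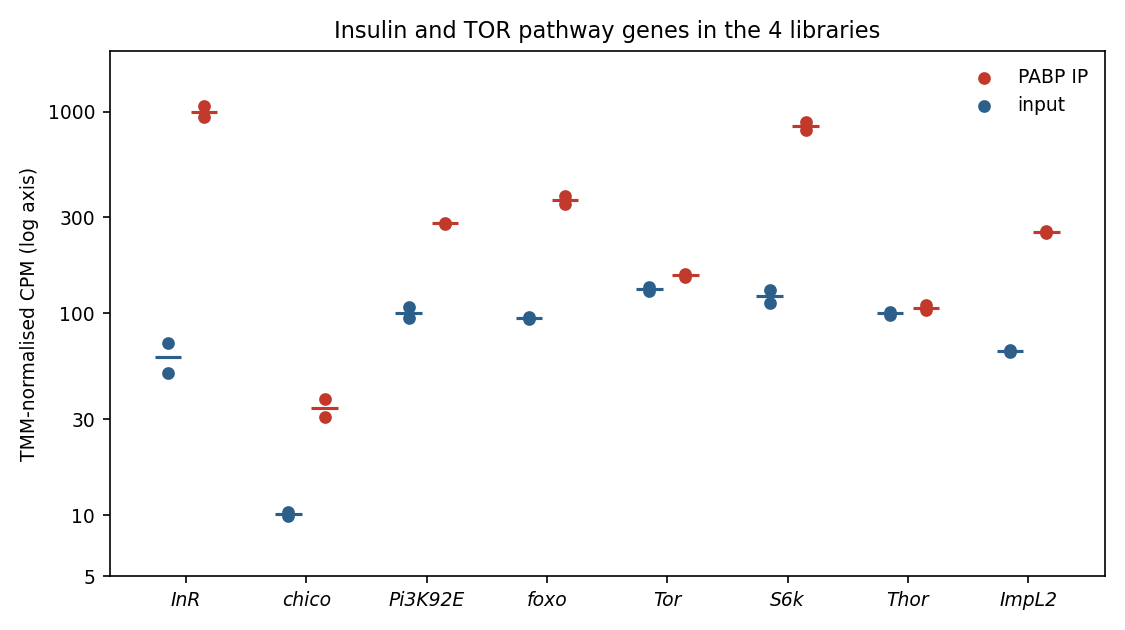
TMM-normalised CPM (log axis) of the 8 measured genes, with a point for each of the 2 PABP IP (red) and 2 input (blue) libraries and a line at the group mean. The gap between groups is widest for InR (939 to 1060.5 CPM in the IP, 50.8 to 71.4 in the input), while the points of Tor and Thor lie close together in both groups; CPM is not scaled by length, so heights are not compared between genes.

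The gene of the TOR kinase itself, Tor, differed little between the groups. It had 157 and 152 CPM in PABP IP 1 and 2 and 136 and 129 CPM in input 1 and 2, which gave a log2 fold change of 0.23 ± 0.10 (SE, n = 2 each; edgeR adjusted p = 0.0478). This call was lost when any library was left out (values from 0.17 to 0.26, adjusted p from 0.0818 to 0.267), and the sign turned with the authors' size factors (-0.27), upper-quartile factors (-0.38) and library size alone (-0.63). Thor encodes the eIF4E-binding translation repressor, which is a FOXO target as well as a TOR substrate. It had 110.0 and 104 CPM in PABP IP 1 and 2 and 102 and 98.5 CPM in input 1 and 2. The 4 libraries lay within a narrow range, and the log2 fold change of 0.10 ± 0.10 (SE, n = 2 each; edgeR adjusted p = 0.399) was not called; with the same 3 scalings Thor was called lower, at -0.40, -0.52 and -0.76.

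A change of scaling shifts all genes by nearly the same amount. Distances from the median of all tested genes therefore hardly depend on it by construction, and their stability is no separate result. InR lay 4.14 above that median on the log2 scale, S6k 2.904, ImpL2 2.05, foxo 2.04, chico 1.85, Pi3K92E 1.57, Tor 0.32 and Thor 0.19, and over 5 scalings each of these moved by less than 0.01. Tor and Thor thus sat near the middle of the distribution, above 58.5% and 55.3% of the tested genes, while InR was above 98.4% and S6k above 94.5%.

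**Figure D2:**
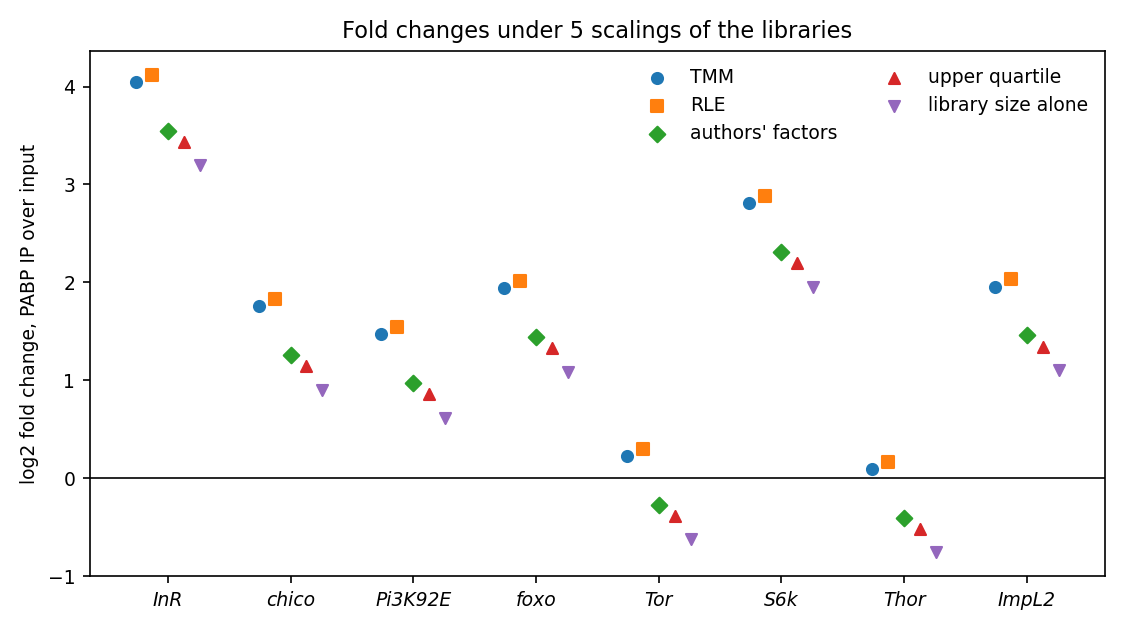
Log2 fold change of PABP IP over input (y axis) for the 8 measured genes under TMM, RLE, the authors' size factors, upper-quartile factors and library size alone. The genes shift together with the scaling, slightly up from TMM with RLE. They shift down with the authors' size factors, upper-quartile factors and library size alone. There Tor and Thor fall below 0 and the other 6 remain above it. InR lies between 3.20 and 4.12.

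The counts of the 8 genes can also be compared within a library, where no scaling enters. InR took 32.1% and 33.6% of their summed counts in PABP IP 1 and 2 but 9.96% and 7.75% in input 1 and 2. S6k took 27.8% and 28% in the IP and 18.1% and 17.2% in the input. Shares of a fixed sum must fall for other genes when those of InR and S6k rise. The share of Tor was 5.37% and 4.80% in the IP and 18.9% and 19.6% in the input. That of Thor was 3.76% and 3.29% against 14.2% and 15.0%. Mean shares were also lower in the IP for Pi3K92E (9.2% against 14.7%), foxo (12% against 13.9%), ImpL2 (8.34% against 9.53%) and chico (1.12% against 1.48%). A lower share is thus not by itself a lower level. Pi3K92E, foxo, ImpL2 and chico were higher in the IP under each of the 5 scalings. For Tor and Thor the direction of the level depended on the scaling. Per count of Tor, 5.979 and 6.997 counts of InR were recorded in PABP IP 1 and 2, and 0.527 and 0.3952 in input 1 and 2. Thor and Tor kept nearly the same ratio to each other, 0.700 and 0.685 in the IP and 0.750 and 0.766 in the input. With 2 libraries against 2, an exact permutation test cannot reach the threshold, so these shares are given without one. Together the genes made up 0.222% and 0.230% of all counts in PABP IP 1 and 2 and 0.0953% and 0.0887% in input 1 and 2.

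**Figure D3:**
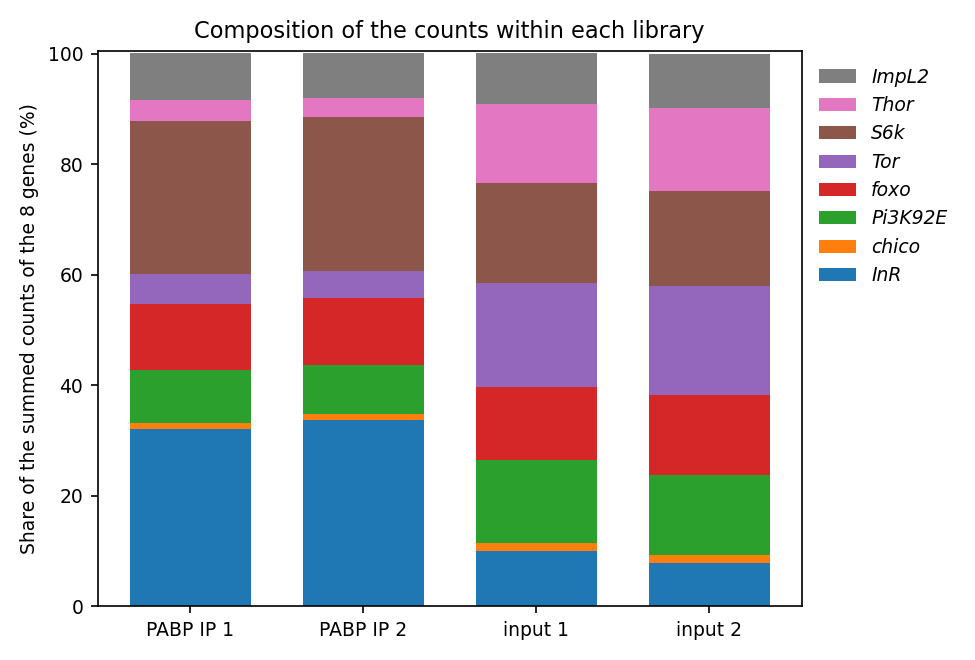
Share (%) of the summed counts of the 8 measured genes taken by each gene, with a bar for each of the 4 libraries. The InR segment is about 32 to 34% in the IP and 8 to 10% in the input. The S6k segment is also wider in the IP, and those of all other genes are wider in the input, most of all Tor and Thor.

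Levels between genes are comparable only per length. The counted length is the whole gene span with its introns, so long genes with large introns such as InR and foxo are understated per kilobase. In CPM per kilobase of span not shared with another gene, Thor was highest in the IP, at 93.3 and 88.1 in PABP IP 1 and 2, followed by S6k at 76.2 and 82.8 and Pi3K92E at 48.2 and 48.7. Then came chico at 24.0 and 29.7, InR at 20.5 and 23.1, ImpL2 at 20.6 and 21.2, Tor at 18.0 and 17.4, and foxo at 11.3 and 12.3. In that order only the neighbours InR and ImpL2 overlapped. The place of chico depends on leaving out its shared span. Per kilobase of whole span its mean was 7.49 in the IP and 2.22 in the input, below foxo at 11.8 and 3.06. The input had another order on the same scale: Thor led with 86.2 and 83.5 in input 1 and 2, and Pi3K92E (18.7 and 16.4), Tor (15.5 and 14.7), S6k (12.2 and 10.6), chico (8.14 and 7.80), ImpL2 (5.43 and 5.33), foxo (3.04 and 3.08) and InR (1.56 and 1.11) followed without overlap. InR thus moved from the last place in the input to the fifth, overlapping the next, in the IP.

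Fold changes across all genes went with counted length. When the tested genes were divided by length into 10 bins of equal size, the median log2 fold change was -0.75 in bin 1, the shortest, and 0.72 in bin 10, the longest, where 53.5% of genes were called higher. InR and foxo, of 49.1 and 31.0 kb, belong to bin 10. InR exceeded 95.9% of the other genes in it and foxo 72.1%. S6k exceeded 89.5% and ImpL2 75.1% of bin 9, whose median was 0.48, and chico exceeded 82.5% of bin 7. In bin 8, with a median of 0.38, Pi3K92E lay above 72.8% and Tor above 45.9% of the genes. Thor, of 1.18 kb, was in bin 2, with a median of -0.44, and exceeded 68.3% of it. The part of gene length in these fold changes was not tested.

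**Figure D4:**
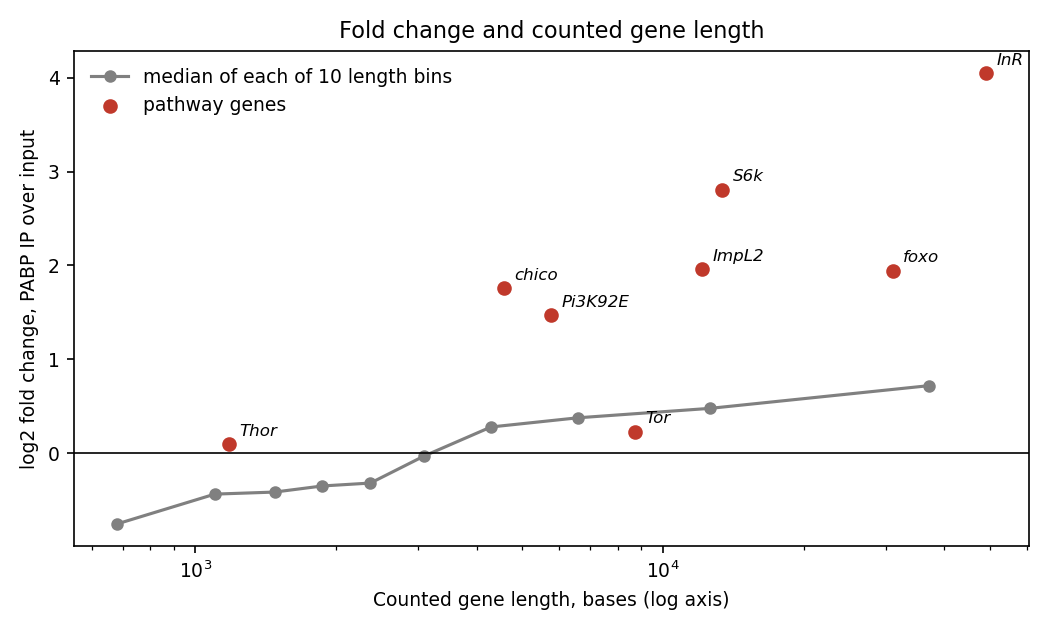
Log2 fold change of PABP IP over input against counted gene length in bases (log axis) for the 8 measured genes (red), with the median of each of 10 length bins of all tested genes (grey line). The grey line rises from -0.75 to 0.72, InR and S6k stand far above it and Tor lies below it.

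Myc, the growth-promoting transcription factor, had 0 counts in all 4 libraries. Its whole span lies inside the long noncoding gene lncRNA:CR44999, and all 1922 protein-coding genes that lie wholly inside another counted gene had 0 counts as well, so the absence of Myc RNA cannot be read from this table. The containing gene had 79 and 125 counts in PABP IP 1 and 2 and 20 and 18 in input 1 and 2. These values are no measure of Myc, since 88.3% of that gene's span is itself shared with Myc and other genes. In the authors' deposited table Myc stands with a base mean of 124 although its columns for these 4 libraries are 0, and its log2 fold change there is 0 (adjusted p = 1). The base mean of that table equals the mean of its 4 library columns within 1% for only 147 of 12248 genes (818 against 1154 for InR), so its fit did not rest on these 4 columns alone. For the measured genes the authors' deposited table gives log2 fold changes of 3.54 for InR, 2.31 for S6k, 1.46 for ImpL2, 1.45 for foxo, 1.26 for chico and 0.97 for Pi3K92E. Neither Tor (-0.27, adjusted p = 0.104) nor Thor (-0.40, adjusted p = 0.339) passed in the authors' deposited table.

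Beyond these 9 genes, 68 others of the pathway were examined in lists ordered by role. Of the 58 tested, 35 were higher and 11 lower, with a median log2 fold change of 0.58, against the background of 37.1% and 38.8%. This split moved with scaling, to 25 higher and 22 lower with the authors' size factors (27.5% and 53.9% of all genes), 24 and 25 with upper-quartile factors (25.8% and 57.3%) and 21 and 30 with library size alone (22.1% and 63.5%). The 10 not tested all overlap neighbours over most or all of their span, and the part of low expression in their low counts was not tested. Ilp1 to Ilp6 and nop5 lie wholly inside other genes, and raptor, RpS6 and Sesn share at least 92.6% of their spans. Among all genes with at least 90% of their span shared, 0.86% could be tested, beside 70.3% of the rest.

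In the PI3K and AKT list 5 of 6 genes were higher, under each of the 5 scalings, and 1 was lower. Over all tested genes 37.1% were higher and 38.8% lower, and with library size alone 22.1% and 63.5%. Akt1, the central kinase of the pathway, had 1244.5 and 1424 CPM in PABP IP 1 and 2 and 110.8 and 94.9 CPM in input 1 and 2, a log2 fold change of 3.70 ± 0.14 (SE, n = 2 each; edgeR adjusted p = 3.9e-13). The regulatory PI3K subunit gene Pi3K21B reached 3.69 ± 0.14 (SE, adjusted p = 3.01e-13), from 97.6 to 1262 CPM on average, while its catalytic partner Pi3K92E reached 1.47. The gene trbl, whose protein holds AKT back, rose by 3.26 on the log2 scale. The kinase gene sgg, an AKT substrate, rose by 2.91 and Pdk1, which activates AKT, by 1.86. The adaptor gene melt, which links TSC and FOXO, was the exception at -0.98, not called in DESeq2 (-0.89).

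Upstream, genes of the extracellular and receptor-proximal steps were divided. The secreted decoy receptor gene Sdr fell from 22.7 CPM on average in the input to 3.26 in the IP (log2 fold change -2.81 ± 0.26 SE, n = 2 each; edgeR adjusted p = 3.5e-08), opposite in direction to ImpL2. The tyrosine phosphatase gene Ptp61F and the adaptor gene dock rose by 1.46 and 1.45. The smaller changes of Lnk, an adaptor of the receptor (0.67), and conv, which resembles the acid-labile subunit of mammalian insulin-like growth factor carriers (0.83), were not called with upper-quartile factors, the authors' size factors or library size alone. The call of conv was also lost in DESeq2 (0.94) and without PABP IP 2 (0.65), input 1 (0.80) or input 2 (0.86). Of the insulin-like peptides 2 could be tested: Ilp8, a relaxin-like peptide, was lower (-0.58), a call lost in DESeq2 (-0.48), and Ilp7, named here after its value was seen, was not called (-0.48).

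The largest changes in the pathway were in scyl and chrb, which encode inhibitors that act on TOR through the TSC complex under stress. For scyl the level was 7750 CPM in PABP IP 1, 9934 in PABP IP 2, 128 in input 1 and 118 in input 2, a 72.0-fold difference (log2 6.17 ± 0.21 SE, n = 2 each; edgeR adjusted p = 1.23e-13) at place 28 of all tested genes. In chrb the log2 fold change was 5.24 ± 0.18 (SE, adjusted p = 1.38e-13). The TSC genes proper changed little by comparison, Tsc1 by 0.83 and gig, the TSC2 gene, by 0.25, and Rheb by 0.55. None of these 3 was called higher with library size alone or upper-quartile factors, and with the authors' size factors Tsc1 was (0.34), Rheb was not (0.0489) and gig was lower (-0.25). The call of gig was lost without each library in turn (0.21 to 0.27). Among the TOR complex genes, Lst8 (2.03), shared by both complexes, and rictor (1.43) of complex 2 rose, and Sin1 of complex 2 fell by 0.52, a call lost without input 2 (-0.39) and in DESeq2 (-0.41).

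All 7 tested TOR effector genes were higher, against a background of 37.1% higher and 38.8% lower. Upper-quartile factors and the authors' size factors each kept 6 of these calls and left 1 gene not called. The background was then 25.8% and 27.5% higher. Under library-size scaling 6 genes stayed up and 1 was called down, where 22.1% of all tested genes were up and 63.5% down. REPTOR, a transcription factor that becomes active when TOR complex 1 is low, had a log2 fold change of 3.74 ± 0.14 (SE, n = 2 each; edgeR adjusted p = 3.56e-13), from 84.8 to 1131 CPM on average. The RNA polymerase I factor gene Tif-IA rose by 2.11, the autophagy genes Atg1 and Atg13 by 1.97 and 1.88, the RNA polymerase III repressor gene Maf1 by 1.71, and eIF4E1, the cap-binding partner of the Thor protein, by 1.22. The cofactor gene REPTOR-BP changed least (0.43), a call lost in DESeq2 (0.52) and without PABP IP 2 (0.27) or input 2 (0.27), and it turned sign with the authors' size factors (-0.07), upper-quartile factors (-0.18) and library size alone (-0.43).

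Of 11 amino acid sensing genes 3 were higher and 3 lower, led by the amino acid transporter genes path (1.504) and slif (-1.80), and with library size alone 1 was higher and 9 lower. The background was 37.1% higher and 38.8% lower, and 22.1% and 63.5% with library size alone. Upper-quartile factors and the authors' size factors each gave 2 higher and 8 lower. The background was then 25.8% and 57.3%, and 27.5% and 53.9%. With so few genes, a difference of this list from the background was not tested. The AMPK subunit gene SNF4Agamma rose by 1.43 and Lkb1, its upstream kinase, by 0.75, a value not called with upper-quartile factors (0.14), the authors' size factors (0.25) or library size alone (-0.10). The subunit genes AMPKalpha (0.13) and alc (0.11), named after their values were seen, were not called.

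Partners of Myc could be measured although Myc could not. Mnt, the repressor that competes with Myc for their common partner, rose from 37.8 to 499 CPM on average (log2 fold change 3.73 ± 0.14 SE, n = 2 each; edgeR adjusted p = 2.68e-13). The common partner Max rose by 2.22, and ago, a ubiquitin ligase gene that targets Myc, by 0.58, which was not higher with upper-quartile factors, the authors' size factors or library size alone. The ATPase genes pont (-0.57) and rept (-0.80) fell. Of 9 nucleolar and ribosome biogenesis genes 4 were higher and 2 lower, and with library size alone none was higher and 7 were lower. Over all tested genes the shares were 37.1% and 38.8%, and 22.1% and 63.5% with library size alone. Nopp140, a nucleolar scaffold, rose by 0.999 and RpI135, a core subunit of RNA polymerase I, fell by 0.49. The call of Nopp140 was lost with library size alone (0.15) and that of RpI135 in DESeq2 (-0.39).

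**Figure D5:**
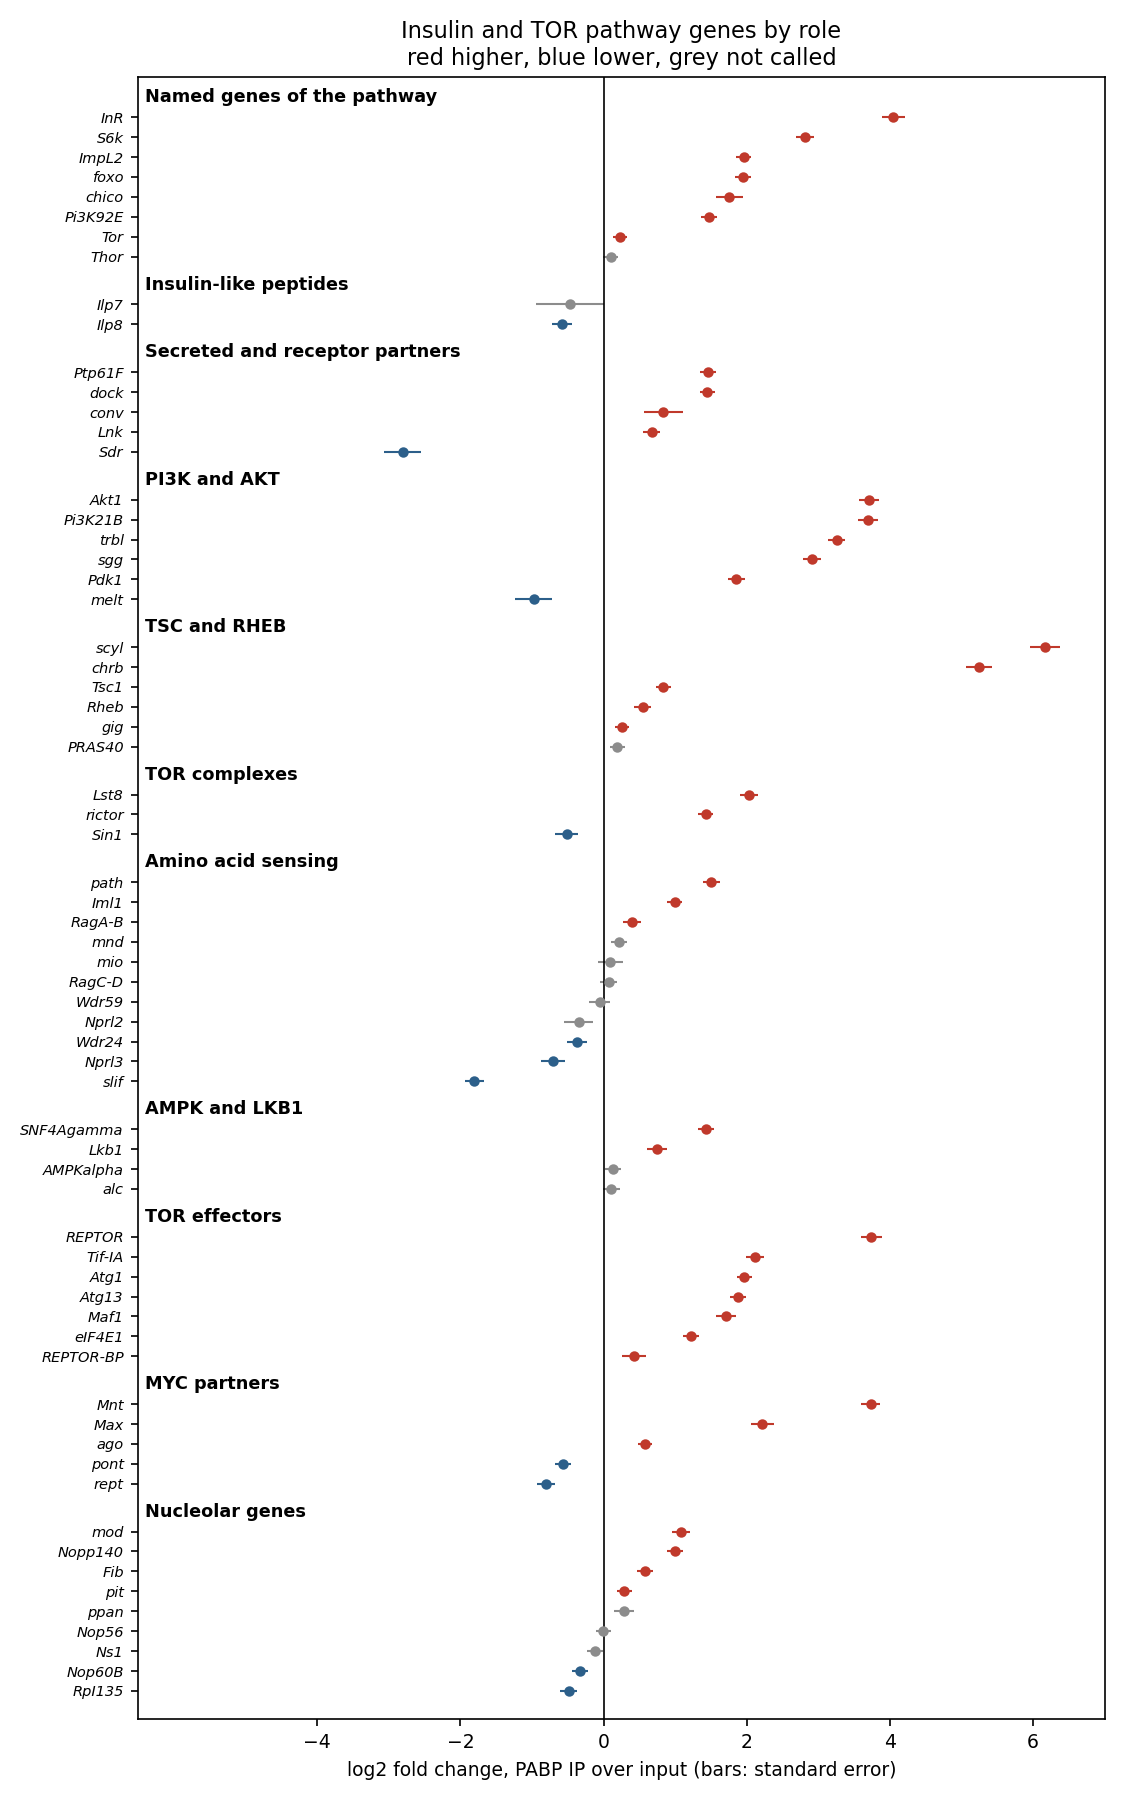
Log2 fold change of PABP IP over input (x axis, bars are standard errors) for the 8 measured genes and the 58 tested genes of the pathway lists, grouped by role and coloured red where called higher, blue where called lower and grey where not called. The scyl and chrb points lie farthest to the right (6.17 and 5.24), Sdr farthest to the left (-2.81), and the PI3K and AKT list and the TOR effectors lie mostly right of 0.

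The genes whose profile over the 4 libraries was nearest to that of InR were CG17855, CG2065 and Dyrk3, with Euclidean distances of 0.0899, 0.144 and 0.154 between centred log2 CPM values. Their log2 fold changes were 4.06, 4.35 and 4.12. For CG2065 the input counts were only 13 and 12.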

How the data were processed

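The submitters' processing notes name STAR 2.7.3a, cutadapt 2.9, Subread 2.0.0, featureCounts, SAMtools 1.10 and DESeq2. The sources used here do not give the genome build, the strand setting or how duplicate reads were treated. The deposited counts are unnormalized whole numbers of reads per gene. A row without a gene name (at most 0.000418% of a library) was left out. The authors' deposited DESeq2 table holds p-values, a Wald score, log2 fold changes with their SE, and a signal per library, which is the deposited count over a size factor.

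Counts of all genes were tested with edgeR 4.0.16 under R 4.3.3, after filterByExpr (minimum count 10) and TMM scaling, by glmQLFit and a two-sided glmQLFTest, with Benjamini-Hochberg adjustment over 9989 genes. The SE is the absolute log2 value divided by the root of F. The script was tested on simulated data. Alternatives were RLE, upper-quartile and library-size scaling, the authors' size factors, 2 count filters, DESeq2 1.42.0, limma-voom (limma 3.58.1), glmTreat at a log2 value of 1, a replicate block and leaving out each library. Gene spans came from the RefSeq table of assembly Release 6 plus ISO1 MT, matched for 17753 symbols, 99.7% with the deposited length; Tor, Akt1 and RpI135 were matched through synonyms. No coordinates are printed because the authors' build is not given, and promoter sequences were not used here.

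The 9 genes and the lists were chosen with earlier results of these data known, and 1 gene of the lists is not reported here. Beyond the 9, the rule named the gene with the lowest p in each direction of each list, all called genes of lists of 8 or fewer, and the 3 genes nearest to InR with a mean CPM of at least 10. Counts of replicates were farther apart than sampling alone gives (chi-square over its degrees of freedom, 7.93 for the IP pair and 2.85 for the inputs). The labels do not say that samples of a group came from separate fly collections, so the spread behind the p-values may be technical. The shallower input libraries limit the precision.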

Additional observations from a re-analysis of the deposited data

How the results depend on the processing

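The log2 fold changes of InR, S6k, ImpL2, foxo, chico and Pi3K92E kept their direction and their call under all alternatives run. Tor was not called with at least 10 counts in every library (0.15), in limma-voom (0.23), against a log2 value of 1 (0.23), with the replicate block (0.23, adjusted p = 0.114) or without any of the libraries (0.17 to 0.26). With library size alone, upper-quartile factors and the authors' size factors the sign turned for Tor (-0.63, -0.38, -0.27), Thor (-0.76, -0.52, -0.40), gig (-0.60, -0.36, -0.25) and REPTOR-BP (-0.43, -0.18, -0.068). Under the former pair it turned for Rheb (-0.31, -0.0647) and ago (-0.27, -0.0337). With library size alone it also turned for Lkb1 (-0.10), Lnk (-0.19), Tsc1 (-0.0183) and conv (-0.02). These scalings set another zero point for all genes. Of all tested genes 3708 were called higher and 3873 lower; library size alone gave 2209 and 6347, testing against a log2 value of 1 gave 2145 and 1584, and DESeq2 called 2521 lower. Of the pathway lists 35 genes were higher and 11 lower. The higher count was 21 with library size alone and 21 against a log2 value of 1. The lower count was 30 with library size alone, 25 with upper-quartile factors, 22 with the authors' size factors, 5 in DESeq2 and 2 against a log2 value of 1. Apart from the scalings and the stricter threshold, the cause of these differences was not tested. Same-numbered libraries did not deviate together (correlation -0.0789). With 2 libraries per group this cannot decide whether the numbers pair the samples. With the replicate block, 3660 genes were higher and 3817 lower, and 34 and 11 of the pathway lists. Low input counts limit the precision of Ilp7, CG2065, conv, CG17855 and chico, among others.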
